A study of Homo sapiens with 16 samples.

Results

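The genes described here code for the core splicing factors of 4 classes: heterogeneous nuclear ribonucleoproteins (hnRNPs), SR proteins, the SF3A and SF3B subunits of the U2 snRNP, and the Sm, U1 and U2 proteins of the small nuclear ribonucleoproteins (snRNPs). They were taken by symbol (HNRNP, SRSF, SF3A, SF3B and SNRP) from the count table. Of its 26485 rows, 60 were members: 26 hnRNP, 12 SR, 9 SF3A or SF3B and 13 snRNP genes. HNRNPU-AS1 was left out as an antisense gene, HNRNPA1P10, HNRNPA1P33, HNRNPA3P1 and HNRNPKP3 as pseudogenes, and SNRPD2P2 because its symbol is not among the SNRP symbols of the rule (A, B, C, D1 to D3, E, F, G, N, 70, A1 and B2). The count table lists the gene for the U1 70 kDa protein under its current symbol, SNRNP70, and it was counted as a member. Of the 60 members, 54 passed the filter on low counts in the fits of each line and of both lines. The other 6, HNRNPCL1, HNRNPCL2, HNRNPCL3, HNRNPCL4, SNRPN and SRSF12, had at most 5 counts in any library. SNRPN overlaps SNURF on the same strand, and how reads shared by both were assigned is not stated, so its counts may be underestimated.

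The samples were the prostate cancer line PC3 and the ovarian cancer line HeyA8, both labeled as wild type. Each line was mock treated or transfected by lipofection with siNT1, a nontoxic control siRNA, with siGGGGGC, named for the 6mer seed of its guide strand, or with siCAG, whose sequence is not given in the sources used here. Total RNA was collected 24 and 48 h later, which gave 1 library per line, treatment and time point, 16 in all and 8 per line. The labels give 1 nM of siRNA, whereas the methods of the study give a higher concentration, and the titles use another name for siGGGGGC. The 24 and 48 h libraries of a treatment served as its 2 replicates, and the main fits hold a term for time. So p-values for treatments and lines rest on the spread left once the mean change from 24 to 48 h is removed, pooled over treatments. Those for 48 against 24 h responses rest on the spread left once the mean difference between the lines is removed. Nothing in the labels says that the 24 and 48 h libraries were separate cultures. The study's methods speak of duplicate wells, and of remaining wells that were lysed at 48 h. Whether the duplicates were pooled is not given in the sources used here. The comparisons address how siGGGGGC, which the study describes as toxic, and siCAG change the transcripts of these genes.

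Introns are removed by the spliceosome. The U1 snRNP recognizes the 5′ splice site and the U2 snRNP the branch site, where SF3A and SF3B clamp the pre-mRNA, and each of these particles is built on a ring of Sm proteins. SR proteins bind exonic enhancers through RNA recognition motifs and recruit the splicing machinery with their arginine- and serine-rich domains. The hnRNPs coat nascent transcripts and often act in opposition to SR proteins. Many SR and hnRNP genes limit their own expression by including exons with premature stop codons. Dividing cells need the core members.

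Between 27937092 and 29971612 reads were counted per PC3 library (median 28520015) and between 29128446 and 31790209 per HeyA8 library (median 30537650). No pair of libraries held identical values. The line labels were read against marker genes in CPM. Here and for the levels below, CPM are counts per library total after TMM scaling over all 16 libraries, with factors of 1.09 to 1.18 in PC3 and 0.807 to 0.911 in HeyA8, so they are lower in PC3 and higher in HeyA8 than with library totals alone. The 6 prostate markers summed to 83.4 to 467 CPM in PC3, with HOXB13 the most abundant, and to 3.91 to 6.19 CPM in HeyA8. KLK2 and KLK3 were at 0 counts in every library, so the androgen-driven markers were absent from the prostate line. The 4 ovarian markers summed to 10.99 to 16.9 CPM in PC3 and to 76.3 to 258 CPM in HeyA8, with PAX8 the most abundant in HeyA8. The 5 epithelial markers summed to 459 to 956 CPM in PC3 and 603 to 1933 in HeyA8, where nearly all of it came from KRT8 and KRT18. The other markers of that list were low in HeyA8, with at most 3 counts of CDH1, 14 of KRT19 and 48 of EPCAM in any library. Both lines held mesenchymal markers (5 genes, 1394 to 1748 and 7895 to 18737 CPM), led by VIM except in the HeyA8 siCAG libraries, where FN1 led. Leukocyte markers (4 genes) summed to at most 1.85 CPM and endothelial markers (3 genes) to at most 12.1 CPM in any library.

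Members took 1.25% to 1.44% of all counts in PC3 libraries. In HeyA8 they took 1.68% to 1.82% in the 6 libraries without siCAG, 1.49% at 24 h after siCAG and 1.06% at 48 h after siCAG. The HeyA8 siCAG libraries stood apart from the others of their line. Their 10 most abundant genes took 8.04% and 7.39% of counts, against 5.51% to 5.91% in the other HeyA8 libraries, and EEF1A1 alone took 1.97% and 2.02%, against 0.991% to 1.20% where it led elsewhere in that line. In bulk RNA, fewer cells of a type and less RNA per cell cannot be told apart. The part of this shift in the results for siCAG was not tested.

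**Figure D1:**
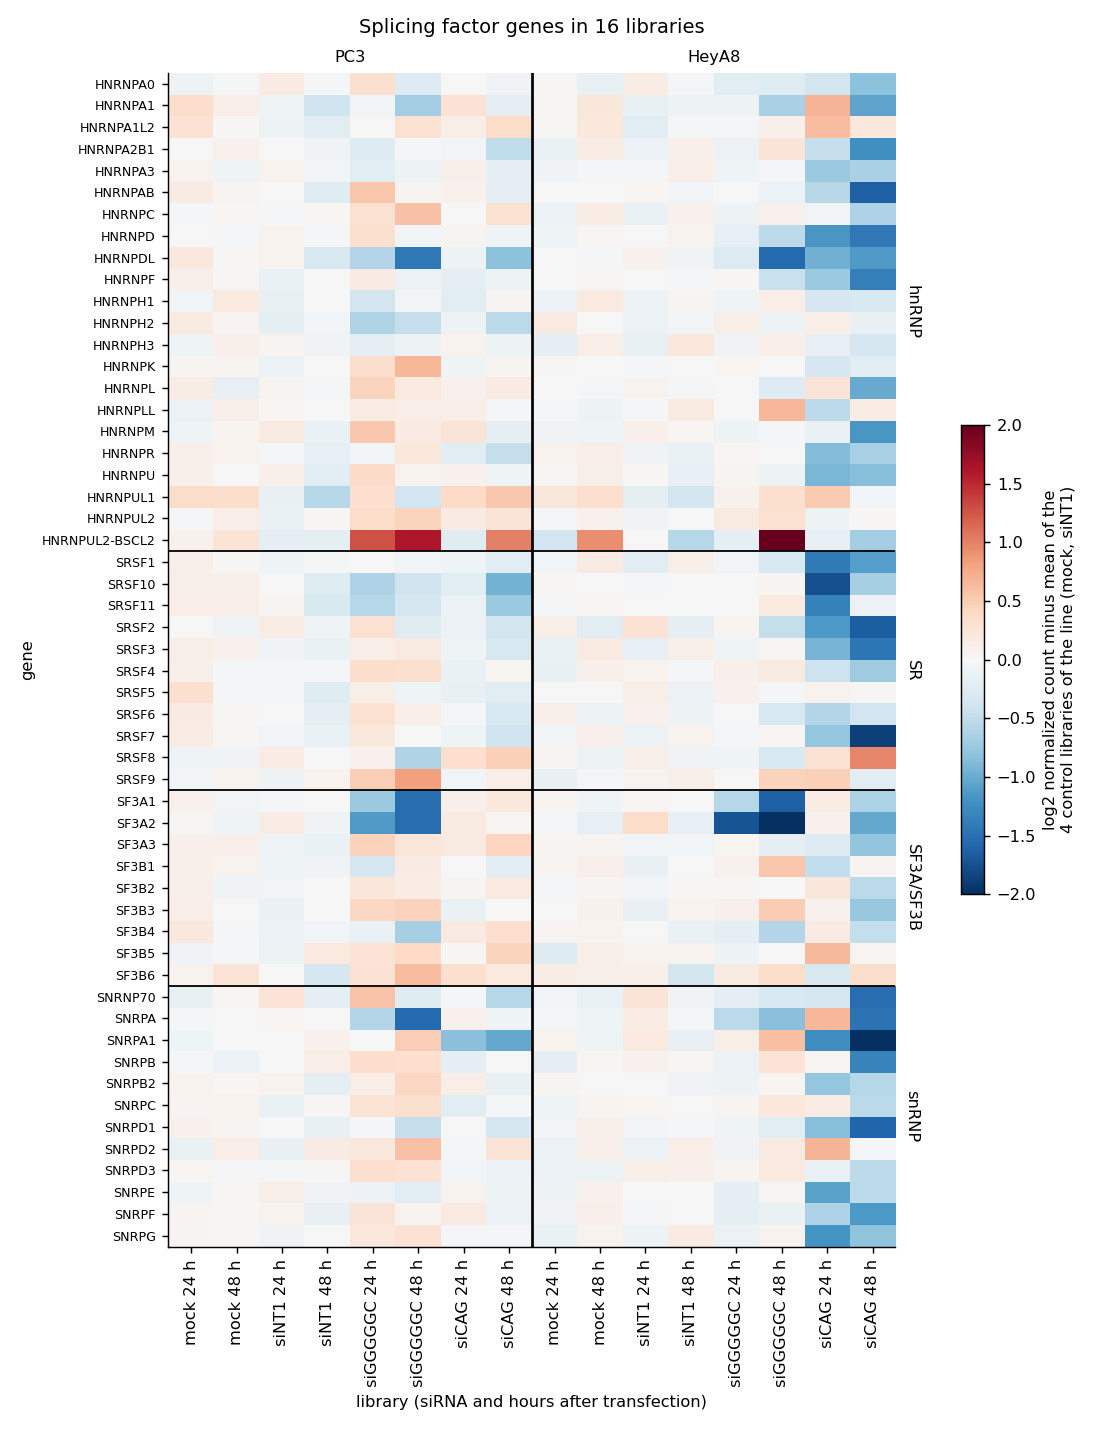
Color gives the log2 normalized count of each of the 54 tested members in each of the 16 libraries (columns, by siRNA and time), minus the mean of the 4 mock and siNT1 libraries of the same line. SF3A1, SF3A2 and HNRNPDL were low in the siGGGGGC libraries of both lines, and most hnRNP, SR and snRNP genes were low in the HeyA8 siCAG libraries. HNRNPUL2-BSCL2 holds at most 30 counts per library.

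Levels within mock cells were compared per kilobase of annotated exon. In PC3 mock cells the highest level was that of HNRNPA1, a splicing repressor, with 145 and 125 CPM per kb at 24 and 48 h. It was followed by HNRNPAB with 135 and 125 CPM per kb, by HNRNPF, a binder of G runs, with 125 and 118, by SRSF2, also known as SC35, with 114 and 108, and by HNRNPK, a binder of C-rich RNA, with 106 and 106. HNRNPA1 and HNRNPAB overlapped between their 2 libraries, as did HNRNPA1 and HNRNPF, so the order of HNRNPA1 against these genes was not separated by this length. In HeyA8 mock cells the same 5 genes were highest: HNRNPA1 had 286 and 323 CPM per kb, HNRNPK 232 and 226, SRSF2 199 and 155, HNRNPAB 178 and 175 and HNRNPF 163 and 162. The range of SRSF2 there covered those of HNRNPAB and HNRNPF. Reads from processed pseudogenes limit the first of these values, since 74 annotated pseudogenes carry the name of HNRNPA1.

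At the low end of the tested members, the read-through gene HNRNPUL2-BSCL2 had 0.0383 and 0.0441 CPM per kb in PC3 and 0.0452 and 0.118 in HeyA8. HNRNPH2, a binder of G runs on the X chromosome, had 4.38 and 4 CPM per kb in PC3 and 7.47 and 6.47 in HeyA8. HNRNPLL, known for its role in CD45 splicing in lymphocytes, had 5.85 and 6.81 and 4.29 and 4.06. SRSF8, an intronless relative of SRSF2, had 8.78 and 8.92 and 8.19 and 7.31. HNRNPA1L2, with 6.58 and 5.45 in PC3, and SRSF4, with 8.48 and 9.92 in HeyA8, completed the lowest 5 of their line. HNRNPA1L2 and HNRNPLL overlapped in PC3, as did HNRNPH2 and SRSF8 in HeyA8. The row of HNRNPH2 overlaps the read-through gene RPL36A-HNRNPH2 on the same strand. How reads shared by overlapping genes were assigned is not stated, so the level of HNRNPH2 may be underestimated. The span that the count table gives for RPL21 overlaps that of HNRNPA1L2. Whether these genes share exons was not examined, and what the overlap means for the level of HNRNPA1L2 is uncertain. With the length of the canonical transcript in place of all annotated exons, chosen after the data were seen, HNRNPA2B1 was the highest in PC3 (303 CPM per kb) ahead of HNRNPA1 (241), and HNRNPA1 remained the highest in HeyA8 (545). SRSF5, HNRNPK and SNRPB completed the highest 5 in PC3 by that length, and HNRNPK, HNRNPA2B1, SNRPD2 and HNRNPH1 those in HeyA8, while HNRNPAB ranked 10 and 11 and HNRNPF 11 and 13. HNRNPA1 was then above HNRNPAB and HNRNPF in every mock library. By the gene lengths that the count table gives, also chosen after the data were seen, HNRNPA1 and HNRNPA2B1 were the highest in both lines, and HNRNPAB ranked 11 and 15 and HNRNPF 39 and 42. The study's methods name an Ensembl annotation for counting, while the count table holds LOC symbols as RefSeq uses them. Of 60 members 5 had a GENCODE exon length, and 7 a length in the count table, longer than the span that the table gives for the gene. HNRNPA1, with 6697 bases of exon in a span of 4543, HNRNPA0 and HNRNPU were among the 5, so the order of levels between genes depends on the length chosen.

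More members were called lower than higher in mock PC3 against mock HeyA8 cells. Of 54 members, 21 were lower and 2 higher in PC3 in edgeR's quasi-likelihood test over the 16 libraries, at a Benjamini-Hochberg adjusted p under 0.05. Of all 15887 genes tested, 19.9% were lower and 25.6% higher. The median log2 difference, PC3 minus HeyA8, was -0.66 for members and 0.09 for all genes. All 9 SF3A and SF3B genes were on the negative side and 6 of them were called, as were 9 of 22 hnRNP genes, 2 of 11 SR genes and 4 of 12 snRNP genes.

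SF3A2, a subunit of the SF3A trimer, differed most. Its log2 difference was -1.76 ± 0.27 (SE, edgeR adjusted p = 0.00036), with 10.78 and 10 CPM per kb in the PC3 mock libraries and 31.7 and 28.4 in those of HeyA8, which did not overlap. SF3A3, which joins the same trimer, differed by -1.38 ± 0.23 (SE, edgeR adjusted p = 0.000716), and SF3A1 by -0.99 ± 0.33 (SE, edgeR adjusted p = 0.0322). HNRNPA1 differed by -1.29 ± 0.43 (SE, edgeR adjusted p = 0.0315), SNRNP70, the U1 protein that contacts the U1 RNA, by -1.20 ± 0.36 (SE, edgeR adjusted p = 0.0176), HNRNPK by -1.20 ± 0.17 (SE, edgeR adjusted p = 0.000213) and HNRNPD, a binder of AU-rich elements, by -1.15 ± 0.22 (SE, edgeR adjusted p = 0.00146). The other 14 lower genes had log2 differences between -1.10 and -0.74. In the opposite direction, SRSF5, an SR protein, was higher in PC3 by 0.76 ± 0.19 (SE, edgeR adjusted p = 0.00656) and HNRNPLL by 0.75 ± 0.24 (SE, edgeR adjusted p = 0.0256). SNRPE, of the Sm ring, came next with 0.43 ± 0.20 (SE, edgeR adjusted p = 0.107) and was not called. Leaving out 1 mock library brought the 23 calls down to 6 without PC3 at 24 h, 12 without PC3 at 48 h, 15 without HeyA8 at 24 h and 11 without HeyA8 at 48 h, where 26.8%, 34.9%, 26.3% and 34.9% of all genes were called. With library totals alone in place of TMM scaling, chosen after the data were seen, 9 members were lower and 5 higher, SNRPE among them, where 14.4% and 33.1% of all genes were, and the medians were -0.35 for members and 0.40 for all genes.

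**Figure D2:**
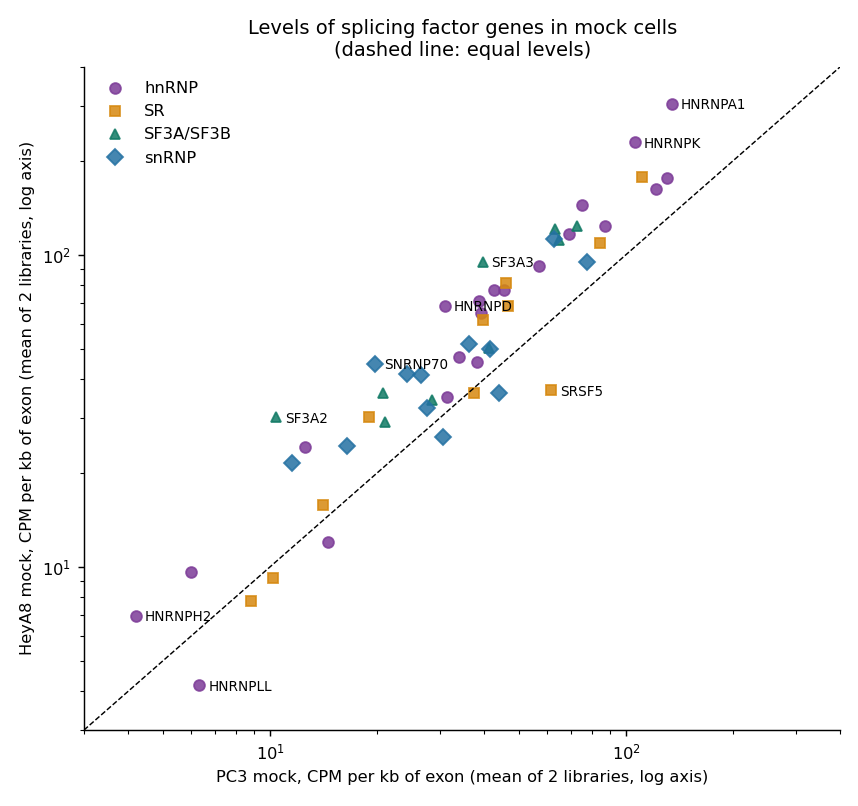
Each point is a member, placed by its mean level in the 2 PC3 mock libraries (x axis, CPM per kb of exon, log scale) and in the 2 HeyA8 mock libraries (y axis, same unit). Most points lie above the dashed line of equal levels, and SRSF5 and HNRNPLL, called higher in PC3, lie below it. HNRNPUL2-BSCL2 is not drawn.

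After siGGGGGC in PC3 cells, 4 members fell and 2 rose against siNT1, of 54 tested. SF3A2, SF3A1, SNRPA and HNRNPDL fell, and SRSF9 and HNRNPK rose. The share of all 15136 genes tested that fell was 6%, and 3.67% rose, so the members' counts were close to this background. The median log2 fold change was 0.20 over members and 0.0029 over all genes, and 17 of 54 members had a negative value against 49.8% of all genes. Against mock in place of siNT1 the median for members was 0.11, and siNT1 itself had a median of -0.10 against mock. Both siGGGGGC libraries were below all 4 mock and siNT1 libraries for 11 members and above all 4 for 20 members, where the same held for 22.9% and 22.5% of all genes.

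Among the SF3A and SF3B genes, SF3A2 (chr19:2236817-2248679, hg38, as the count table gives it) had normalized counts at 24 and 48 h in PC3 of 980.2 and 910.1 in mock cells, 1071 and 921 after siNT1, 439.6 and 338 after siGGGGGC and 1102 and 990.3 after siCAG. Both siGGGGGC libraries lay under all 6 others. Its log2 fold change was -1.36 ± 0.17 (SE, edgeR adjusted p = 0.0104). SF3A1 (chr22:30331988-30356947), the subunit that contacts the U1 snRNP, had 4479 and 4076 in mock cells, 4169.7 and 4229 after siNT1, 2539 and 1476 after siGGGGGC and 4567 and 4887 after siCAG. Again the siGGGGGC libraries did not overlap the others, and the 48 h value was the lower of the pair. The log2 fold change of SF3A1 was -1.09 ± 0.22 (SE, edgeR adjusted p = 0.0306). SF3A3, the remaining subunit of the trimer, had a value of the opposite sign, with 6415 and 5541 normalized counts after siGGGGGC and 4455 and 4249.5 after siNT1, and a log2 fold change of 0.46 ± 0.16 (SE, edgeR adjusted p = 0.0942). It was not called.

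None of the 6 SF3B genes was called by edgeR. DESeq2 called SF3B6 and SF3B3, and also HNRNPUL2, as higher, which made 4 members lower and 5 higher with that tool, beside 11.1% and 7.5% of all genes. SF3B6, which sits next to the branch site adenosine, had a log2 fold change of 0.63 ± 0.19 (SE, edgeR adjusted p = 0.0756) and SF3B3, a scaffold subunit, one of 0.51 ± 0.14 (SE, edgeR adjusted p = 0.0572). SF3B1, the large subunit that holds the branch site helix, had 0.01 ± 0.19 (SE, edgeR adjusted p = 0.982). SF3B4 was the only SF3B gene with both siGGGGGC libraries below the controls, at 3016 and 2078 normalized counts against 3050.3 and 3159 after siNT1, with a log2 fold change of -0.30 ± 0.19 (SE, edgeR adjusted p = 0.309).

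Of the snRNP genes, SNRPA (chr19:40750854-40765392), which codes for protein A of the U1 snRNP, fell. Its normalized counts were 2011 and 2068 in mock cells, 2116 and 2064 after siNT1, 1376 and 703 after siGGGGGC and 2202 and 1937 after siCAG, and the siGGGGGC libraries lay under all 6 others. The log2 fold change was -1.05 ± 0.25 (SE, edgeR adjusted p = 0.0421). The other U1 genes were not called: SNRPC had 0.35 ± 0.14 and SNRNP70 0.13 ± 0.23 on the log2 scale (± SE). Neither were the U2 genes SNRPA1 (0.23 ± 0.19) and SNRPB2 (0.33 ± 0.18), nor any of the 7 tested Sm genes, whose log2 fold changes had a median of 0.28.

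Of the hnRNP genes 1 fell and 1 rose. HNRNPDL (chr4:82422564-82430225), a relative of HNRNPD, had 8716 and 7602 in mock cells, 7911 and 6039 after siNT1, 4993 and 2778 after siGGGGGC and 6993 and 4269 after siCAG normalized counts. The siGGGGGC libraries were below all 4 controls, while the siCAG library of 48 h also was, so the conditions overlap. Its log2 fold change after siGGGGGC was -0.89 ± 0.19 (SE, edgeR adjusted p = 0.0318). HNRNPK (chr9:83968083-83980654) had 19642 and 19724 in mock cells, 17578 and 19189 after siNT1, 24268 and 30276 after siGGGGGC and 17876 and 19721 after siCAG, with both siGGGGGC libraries above all 6 others, and a log2 fold change of 0.56 ± 0.14 (SE, edgeR adjusted p = 0.0465). The value for HNRNPUL2-BSCL2, 1.71 ± 0.62 (SE, edgeR adjusted p = 0.106), rests on 4 to 15 counts per PC3 library and on exons that it shares with HNRNPUL2.

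SRSF9 (chr12:120461668-120469755) was the only SR gene called. It had 4597 and 5027 in mock cells, 4444 and 5028 after siNT1, 6677 and 8436 after siGGGGGC and 4611 and 5200.00 after siCAG normalized counts, highest in the siGGGGGC libraries, and a log2 fold change of 0.67 ± 0.14 (SE, edgeR adjusted p = 0.0312). SRSF9 overlaps GATC on the opposite strand, whose mean count over all libraries was 40.2% of that of SRSF9. Whether reads were counted by strand is not stated. The other 10 SR genes had log2 fold changes between -0.38 and 0.37. Without either siNT1 library, no member was called in PC3, and without 1 siGGGGGC library 2 (without 48 h) or 10 (without 24 h) were, where 0%, 3.99% and 23.5% of all genes were called. Without a term for time, SF3A1 and SF3A2 were called (4.13% of all genes), and with the 4 compared libraries alone SF3A2 was (2.99%).

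**Figure D3:**
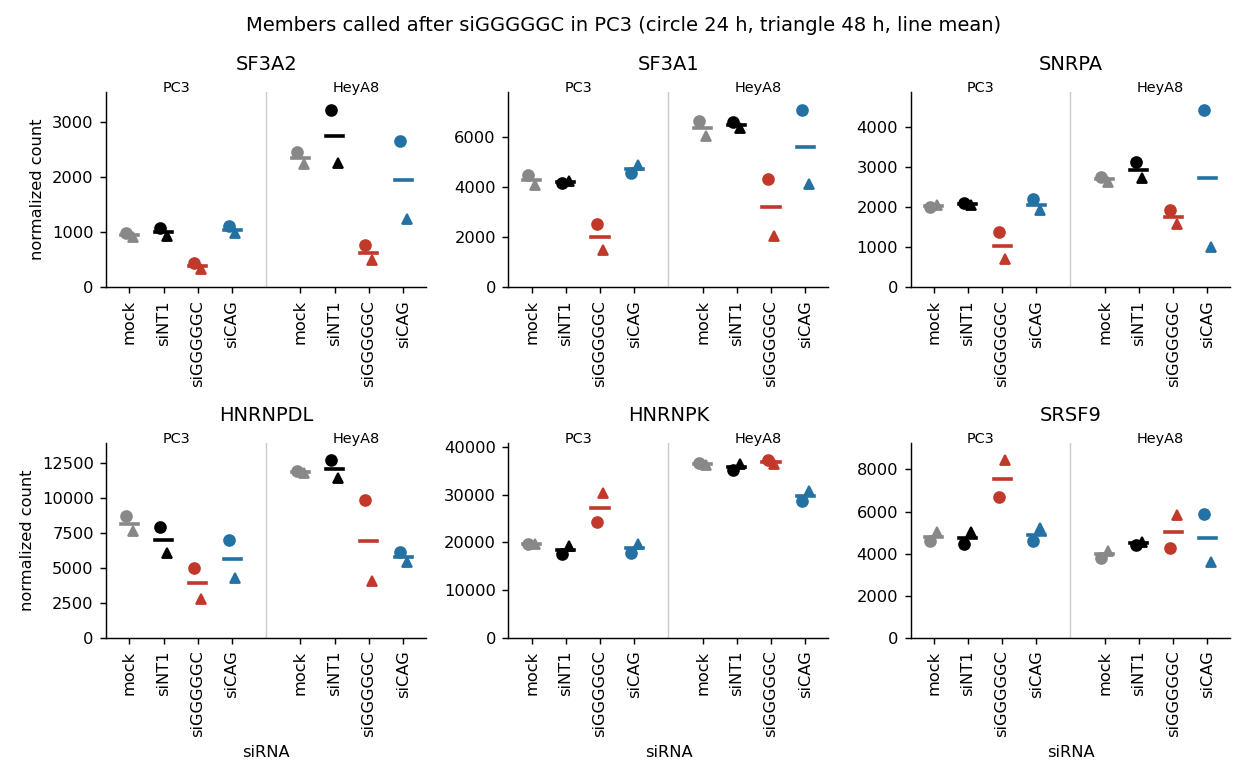
Normalized counts (y axis, from 0) of the 6 members called after siGGGGGC in PC3, in mock, siNT1, siGGGGGC and siCAG cells of PC3 (left of each panel) and HeyA8 (right). Circles are 24 h, triangles 48 h and lines the mean of both. SF3A2 and SF3A1 are below the 4 controls in both lines, and HNRNPK is above them in PC3 and level with them in HeyA8.

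In HeyA8 cells no member was called after siGGGGGC, and neither was any of the 13872 genes tested (0%). With the 4 compared libraries alone 4 members were called, all lower, beside 8.86% of all genes. At an unadjusted p under 0.05, edgeR gave 3 members and 9.75% of all genes, and DESeq2 called 1, SF3A2, and 2.29% of all genes. SF3A2 had 2454 and 2227 in mock cells, 3219 and 2249.8 after siNT1, 762 and 499 after siGGGGGC and 2654 and 1235 after siCAG normalized counts, the siGGGGGC libraries lying under all 6 others, and a log2 fold change of -2.13 ± 0.28 (SE, edgeR adjusted p = 0.108). SF3A1 had 6655 and 6051 in mock cells, 6582 and 6376 after siNT1, 4338 and 2057 after siGGGGGC and 7095 and 4132 after siCAG, below all 4 controls after siGGGGGC, with -1.11 ± 0.31 (SE, edgeR adjusted p = 0.35). HNRNPDL followed with -0.87 ± 0.34 (SE, edgeR adjusted p = 0.493) and 9836 and 4055 normalized counts after siGGGGGC against 12675 and 11398 after siNT1. SNRPA had 1933 and 1578 against 3123 and 2741, with -0.75 ± 0.50 (SE, edgeR adjusted p = 0.692). The largest positive values were those of HNRNPUL2-BSCL2 (1.42 ± 0.86 ± SE on the log2 scale), HNRNPUL1 (0.50 ± 0.25) and SF3B1 (0.40 ± 0.21). HNRNPUL1 lost that direction against mock cells. Both siGGGGGC libraries were below all 4 controls for 10 members and above for 3, against 17% and 16% of all genes.

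HNRNPK and SRSF9 showed log2 fold changes of 0.04 ± 0.17 and 0.17 ± 0.30 in HeyA8. The difference between the lines was tested itself: no member, and none of 15887 genes (0%), had a siGGGGGC response that differed between HeyA8 and PC3. DESeq2 also called no member. At an unadjusted p under 0.05 edgeR gave 2 members and 6.63% of all genes. For SF3A2 the response in HeyA8 minus that in PC3 was -0.76 ± 0.33 (SE, edgeR adjusted p = 0.75), for HNRNPK -0.52 ± 0.21 (SE, edgeR adjusted p = 0.741) and for HNRNPD -0.50 ± 0.27 (SE, edgeR adjusted p = 0.807). HNRNPH2 (0.52 ± 0.32), SRSF10 (0.44 ± 0.40) and SF3B1 (0.41 ± 0.28) were at the other end. Values that miss the threshold do not show that the lines responded alike.

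Over both lines in 1 fit, DESeq2 called 4 members lower and 2 higher after siGGGGGC, beside 6.73% and 6.33% of all genes. By edgeR 3 members fell and none rose, where 3.59% of all genes fell and 2.98% rose. They were SF3A2 with a log2 fold change of -1.72 ± 0.17 (SE, edgeR adjusted p = 0.000415), SF3A1 with -1.07 ± 0.21 (SE, edgeR adjusted p = 0.0155) and HNRNPDL with -0.85 ± 0.20 (SE, edgeR adjusted p = 0.0344). SNRPA had -0.87 ± 0.32 (SE, edgeR adjusted p = 0.121) and was not called by edgeR. At the upper end stood HNRNPUL2-BSCL2 with 1.60 ± 0.54, SF3B6 with 0.53 ± 0.18 and SF3B3 with 0.46 ± 0.20. Without any 1 of the siNT1 or siGGGGGC libraries of 48 h, in either line, 1 member was called (1.08% to 1.52% of all genes), and without either siNT1 library of 24 h 2 were (1.87% and 2.75%). Without the siGGGGGC library of 24 h, 3 (PC3) or 4 (HeyA8) were called, beside 8.58% and 10.8% of all genes.

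The change from 24 to 48 h was not called for any member or for any of 15887 genes (0%), by edgeR or, for members, by DESeq2. In edgeR 3 of 54 members had an unadjusted p under 0.05, a count that is not read as a result. The response at 48 h minus that at 24 h was -0.95 ± 0.34 (SE, edgeR adjusted p = 1) for SF3A1, -0.84 ± 0.33 (SE, edgeR adjusted p = 1) for HNRNPDL and -0.50 ± 0.39 (± SE) for HNRNPA1. Largest on the positive side were HNRNPUL2-BSCL2 (1.61 ± 1.03), SF3B6 (0.65 ± 0.29) and SNRPA1 (0.59 ± 0.40). SF3A2 was already low at 24 h in both lines.

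The 6mer GCCCCC, the match to the seed of siGGGGGC, was read on the mRNA strand of the transcript with the longest 3′ UTR (GENCODE v44, hg38). It was found in the 3′ UTR of 6 of 59 members with a record, against 5408 of 18030 protein-coding genes. Sites of 4 genes are printed, since 3 of these genes fell after siGGGGGC in PC3 and 1 did not. Each line holds 30 bases of the 3′ UTR with the 6mer in capitals.
SF3A2, chr19:2248615-2248644, plus strand: ctcttttgtactGCCCCCcgctcattaaac
SF3A1, chr22:30334503-30334532, minus strand: ccagacccaggaGCCCCCctgaggctttgc
SNRPA, chr19:40765220-40765249, plus strand: ccccttggctcaGCCCCCtgaaggtaagtc
SNRPB, chr20:2461775-2461804, minus strand: ttcccttacaggGCCCCCtcccccgggaat

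The 6mer begins at base 81 of the 109-base 3′ UTR of SF3A2, at base 74 of 2606 in SF3A1, at base 65 of 222 in SNRPA and at base 137 of 287 in SNRPB. HNRNPUL1 also had 1 such 6mer and SF3B3 had 2. For the 6 genes with the 6mer in the 3′ UTR, the median response to siGGGGGC was -0.38 in PC3 and -0.36 in HeyA8 on the log2 scale, and 3 of them were called in PC3. The 47 tested members without it had medians of 0.20 and 0.0033, and 1 of them, HNRNPDL, was called lower. Over all protein-coding genes tested in PC3, 10.2% of those with the 6mer and 4.35% of those without fell. SNRPB, with a log2 fold change of 0.28 ± 0.14 (SE, edgeR adjusted p = 0.207), SF3B3 and HNRNPUL1 did not fall in PC3. HNRNPDL had the 6mer neither in its 3′ UTR nor in its coding sequence.

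In the coding sequence the 6mer was found in 19 of 59 members, against 39.5% of protein-coding genes. SF3A2 held the 6mer 11 times in its coding sequence and SF3A1 8 times, followed by SF3B2 with 6, SF3B4 with 4 and SNRPA and HNRNPL with 3 each. A stretch of the SF3A2 and of the SF3A1 coding sequence is shown, with the 6mers in capitals, because these members had the largest decreases and the most matches.
SF3A2, chr19:2248166-2248195, plus strand: ccaGCCCCCggggttcacccaccaGCCCCC
SF3A1, chr22:30337793-30337822, minus strand: cggctGCCCCCaggctcagtgatcGCCCCC

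SF3B2, with 6 matches in its coding sequence and none in its 3′ UTR, had a log2 fold change of 0.21 ± 0.14 (± SE) in PC3 and 0.02 ± 0.27 in HeyA8. The 12 tested members with the 6mer in the coding sequence alone had a median of 0.17 in PC3 and -0.12 in HeyA8. Of all protein-coding genes tested in PC3 that had at least 8 matches in the coding sequence, a threshold set after the values of SF3A1 and SF3A2 were seen, 23.4% of 235 fell. Of these 235 genes, 140 also had the 6mer in the 3′ UTR, and they held 41 of the 55 that fell. With the 6mer in the coding sequence alone, at any number, 4.18% of genes fell, against 4.43% of those with none in either, and of the 95 genes with at least 8 there and none in the 3′ UTR 14.7% fell. At least 8 matches are found in 1.52% of all protein-coding genes. A match is a description of the sequence and says nothing about binding.

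After siCAG, 9 members fell in HeyA8 cells against siNT1 and none rose, of 54 tested. These comparisons share the siNT1 libraries with those of siGGGGGC. The genes that fell were the SR genes SRSF1, SRSF2 and SRSF3, the hnRNP genes HNRNPD, HNRNPF, HNRNPU and HNRNPA3, the Sm gene SNRPG and the U2 gene SNRPA1. Of all 13872 genes, 4.93% fell and 2.88% rose. The median log2 fold change was -0.46 for members and -0.01 for all genes, and 44 of 54 members had a negative value against 50.6% of all genes. Without the siCAG library of 24 h the median for members was -0.71 and without that of 48 h -0.29. Both siCAG libraries were below all 4 mock and siNT1 libraries for 29 members and above them for 1, where 23.5% and 23.7% of all genes did so.

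By class, the median log2 fold change was -0.68 for SR, -0.72 for snRNP, -0.31 for hnRNP and -0.14 for SF3A and SF3B genes. Except for SR genes, these medians differed between the time points, each with 1 library per treatment. At 24 and 48 h the median log2 ratio to siNT1 was 0.11 and -0.56 for SF3A and SF3B genes, -0.68 and -0.66 for SR, -0.59 and -1.06 for snRNP and -0.27 and -0.70 for hnRNP genes. None of the 9 SF3A and SF3B genes was called by edgeR or DESeq2. At an unadjusted p under 0.05 edgeR gave none of them, beside 29.5% of all genes. The calls depended on single libraries. Without either siNT1 library no member was called, and without 1 siCAG library 28 (without 48 h, 22 lower and 6 higher) or 35 (without 24 h, 34 lower and 1 higher) were. Of all genes, 21.9% were lower and 11.02% higher without 48 h, 17.4% and 14.1% without 24 h, and 0.376% and 0.291% were called without the siNT1 library of 24 or 48 h. DESeq2 called 20 members, all lower, beside 10.9% of all genes lower and 8.29% higher, and the 4 compared libraries alone gave 1, SNRPA1, beside 4.31%.

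Among SR genes, SRSF2 (chr17:76734115-76737411) had 16437 and 12926 in mock cells, 18629 and 13458 after siNT1, 15752 and 10937 after siGGGGGC and 6825 and 4864 after siCAG normalized counts at 24 and 48 h in HeyA8. The siCAG libraries lay under all 6 others. Its log2 fold change was -1.46 ± 0.19 (SE, edgeR adjusted p = 0.0119). SRSF1 (chr17:58000919-58007346), the founding SR protein, had 16280.1 and 18898 in mock cells, 14689 and 18298 after siNT1, 16256 and 13715 after siGGGGGC and 6397 and 7922 after siCAG. Its siCAG libraries also did not overlap any other, and the log2 fold change was -1.20 ± 0.22 (SE, edgeR adjusted p = 0.0311). SRSF3, the smallest SR protein, had 6991 and 4887 after siCAG and 11795 and 14368 after siNT1, with -1.13 ± 0.26 (SE, edgeR adjusted p = 0.0496). SRSF7 and SRSF10 had values of the same size, -1.23 ± 0.36 (SE, edgeR adjusted p = 0.0804) and -1.14 ± 0.33 (SE, edgeR adjusted p = 0.0784), without passing the threshold. SRSF10, which can repress splicing, was lower at 24 h than at 48 h after siCAG (1528 and 3238 normalized counts), and SRSF7 was lower at 48 h (4019 and 1869). SRSF8 stood at the other end with 0.65 ± 0.28 (SE, edgeR adjusted p = 0.183) and was the only member with both siCAG libraries above the 4 controls. Its normalized counts after siCAG were 1172 and 1850, and over the alternatives its value ranged from 0.19 to 1.03. SRSF5 had 5769.8 and 5589 after siCAG and 5949 and 5027 after siNT1.

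Of the hnRNP genes, HNRNPD (chr4:82353314-82373996) had 12909.7 and 13941 in mock cells, 13763 and 14506 after siNT1, 12304 and 9572 after siGGGGGC and 6157 and 5098 after siCAG normalized counts, lowest in the siCAG libraries, and a log2 fold change of -1.34 ± 0.22 (SE, edgeR adjusted p = 0.0226). HNRNPF had 8764 and 5701 after siCAG and 14593 and 14527 after siNT1, with -1.04 ± 0.24 (SE, edgeR adjusted p = 0.0493). HNRNPU, a nuclear scaffold protein, had 14873 and 15498 and 28455 and 24926, with -0.81 ± 0.18 (SE, edgeR adjusted p = 0.0476), and HNRNPA3 had 16300.05 and 17417 and 26563 and 29989, with -0.74 ± 0.17 (SE, edgeR adjusted p = 0.0496). For each of these 4 genes the siCAG libraries were below all 6 other HeyA8 libraries. The values for HNRNPA3 carry the limit of 16 annotated pseudogenes of that name. HNRNPA1 had its highest and its lowest HeyA8 count in the siCAG libraries, 83228 and 25157 at 24 and 48 h, against 47010.5 to 60801 in the 4 controls. Its log2 fold change over both time points was 0.04 ± 0.45 (SE, edgeR adjusted p = 0.964). HNRNPUL1 and HNRNPA1L2 had the largest positive values, 0.53 ± 0.25 and 0.55 ± 0.26 (± SE), and were not called. Against mock cells the value of HNRNPUL1 was -0.037.

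Of the snRNP genes, SNRPA1 (chr15:101281510-101295255), which codes for protein A′ of the U2 snRNP, had 2315 and 2087 in mock cells, 2526 and 1979 after siNT1, 2422 and 3382 after siGGGGGC and 936 and 505 after siCAG normalized counts and the largest decrease of any member, -1.66 ± 0.34 (SE, edgeR adjusted p = 0.0382). SNRPG, of the Sm ring, had 1136 and 1488 after siCAG and 2437 and 2920.1 after siNT1, with -1.03 ± 0.20 (SE, edgeR adjusted p = 0.0357), and has 20 annotated pseudogenes. SNRPD1, also of the ring, had -1.16 ± 0.28 (SE, edgeR adjusted p = 0.0527) and was not called. SNRPD2, the partner of SNRPD1 in the ring, had 7235 and 4449.6 after siCAG, 4171 and 4958 after siNT1 and a log2 fold change of 0.36 ± 0.30 (SE, edgeR adjusted p = 0.46). SNRPA split by time as HNRNPA1 did, with 4442 and 1007 normalized counts at 24 and 48 h against 2644 to 3123 in the controls.

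**Figure D4:**
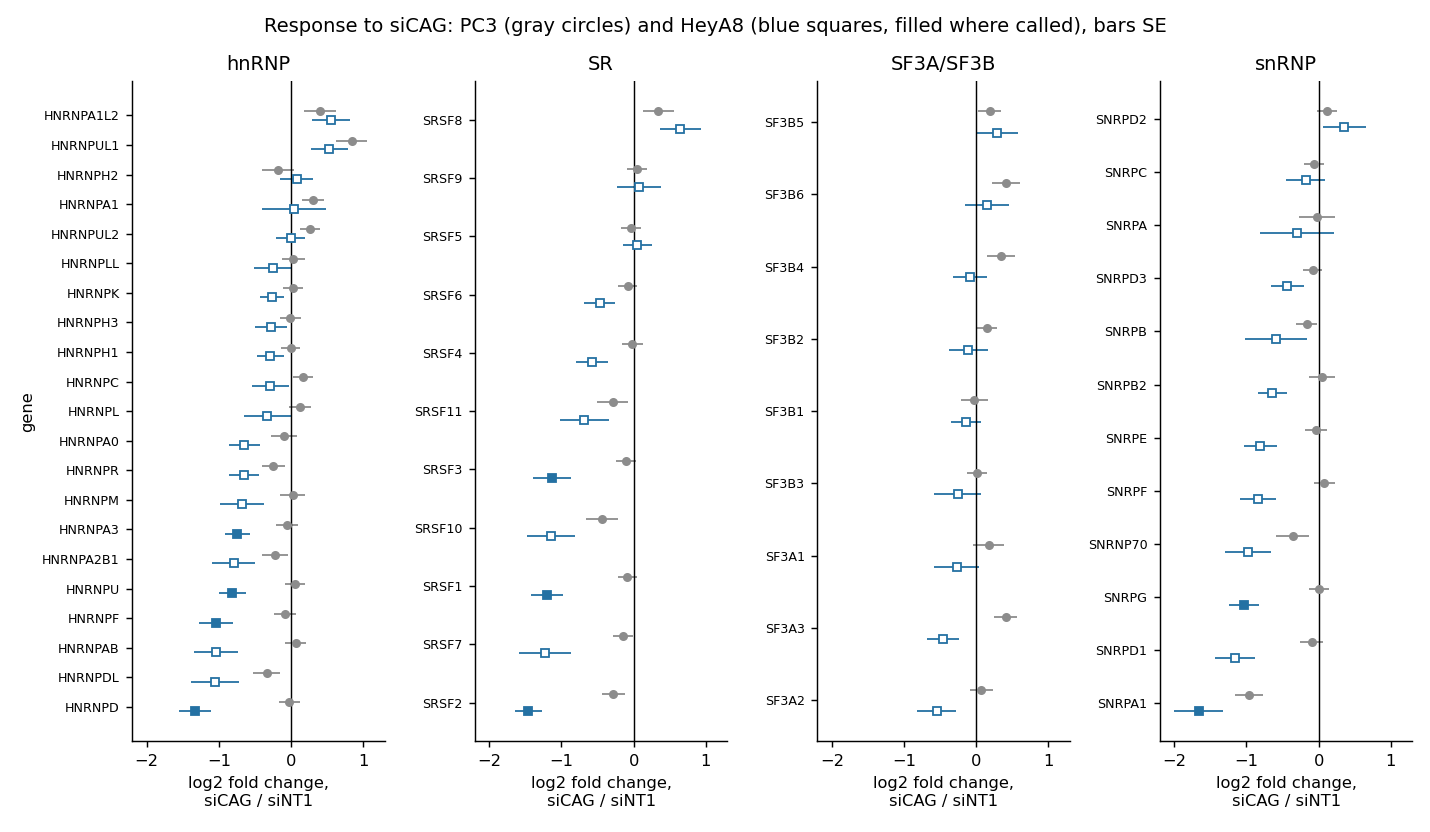
Log2 fold change after siCAG against siNT1 (x axis) with its standard error for 53 tested members in PC3 (gray circles) and HeyA8 (blue squares, filled where edgeR's adjusted p is under 0.05), ordered within each class by the HeyA8 value. No PC3 value was called, and HNRNPUL2-BSCL2 is not drawn. The HeyA8 values reach -1.66 for SNRPA1, while the SF3A and SF3B values stay between -0.55 and 0.30.

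In PC3 cells no member was called after siCAG, where 1.16% of all 15136 genes fell and 0.0396% rose. With the 4 compared libraries alone 3 members were called lower and 3 higher, beside 15.99% of all genes. At an unadjusted p under 0.05 edgeR gave 3 members and 13.5% of all genes, and DESeq2 called 2, SNRPA1 and HNRNPUL1, and 3.78% of all genes. The median log2 fold change was -0.0092 for members and -0.0056 for all genes. SNRPA1 had 1336 and 1419.8 in mock cells, 1398 and 1503 after siNT1, 1418 and 1996 after siGGGGGC and 791 and 691 after siCAG normalized counts, the siCAG libraries lying under all 6 others, and a log2 fold change of -0.96 ± 0.19 (SE, edgeR adjusted p = 0.0725). SRSF10 (-0.44 ± 0.22, SE, edgeR adjusted p = 0.438) and SNRNP70 (-0.36 ± 0.23, SE, edgeR adjusted p = 0.535) followed. Over the alternatives the value of SRSF10 ranged from -0.82 to -0.11. On the positive side were HNRNPUL1 (0.84 ± 0.22, SE, edgeR adjusted p = 0.157), HNRNPUL2-BSCL2 (0.69 ± 0.68) and SF3B6 (0.42 ± 0.19). Both siCAG libraries were below the 4 controls for 4 members and above them for 5, against 14.9% and 13.6% of all genes. SRSF2 had 10121 and 8503 after siCAG and 12212 and 10411 after siNT1 in PC3, with -0.28 ± 0.16 on the log2 scale.

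The difference in response between the lines was not called for any member by edgeR (0.636% of all genes were called), with 14 members and 14.6% of all genes at an unadjusted p under 0.05. DESeq2 called 5, HNRNPD, HNRNPU, SNRPG, SRSF1 and SRSF2, and 4.22% of all genes. The median difference, HeyA8 minus PC3, was -0.33 on the log2 scale for members and 0.13 for all genes, and RLE size factors moved these to -0.39 and 0.07. Without the HeyA8 siCAG library of 24 h the median for members was -0.61 and without that of 48 h -0.14. HNRNPD had -1.20 ± 0.27 (SE, edgeR adjusted p = 0.0854), SRSF2 -1.07 ± 0.25 (SE, edgeR adjusted p = 0.0928) and SRSF1 -1.01 ± 0.25 (SE, edgeR adjusted p = 0.112). SRSF8 (0.41 ± 0.36), HNRNPH2 (0.38 ± 0.32) and SNRPD2 (0.36 ± 0.36) were the most positive. Leaving out the HeyA8 siCAG library of 24 h raised the calls to 19 and leaving out that of 48 h to 5, where 9.24% and 6.36% of all genes were called.

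Over both lines, DESeq2 called 16 members lower and 3 higher after siCAG, beside 10.4% and 11.8% of all genes. By edgeR 8 members fell and 1 rose, where 7.41% of all genes fell and 9.79% rose. SNRPA1 fell by most, with -1.23 ± 0.21 (SE, edgeR adjusted p = 0.00384), followed by SRSF2 with -0.79 ± 0.12 (SE, edgeR adjusted p = 0.00251), SRSF10 with -0.71 ± 0.20 (SE, edgeR adjusted p = 0.0329), HNRNPD with -0.60 ± 0.14 (SE, edgeR adjusted p = 0.0139), SRSF1 with -0.57 ± 0.13 (SE, edgeR adjusted p = 0.0128) and SNRPD1 with -0.54 ± 0.17 (SE, edgeR adjusted p = 0.0497). SRSF3 and SNRPG were the remaining members that fell. In PC3 alone the log2 fold change was -0.96 for SNRPA1, -0.44 for SRSF10 and -0.28 for SRSF2. SNRPD1 and SRSF3 had -0.10 there, SRSF1 -0.09, HNRNPD -0.03 and SNRPG 0.0079. HNRNPUL1 rose by 0.77 ± 0.19 (SE, edgeR adjusted p = 0.0186), but against mock cells its value was 0.12 (edgeR adjusted p = 0.713). SRSF8 and HNRNPA1L2 had 0.57 ± 0.18 and 0.56 ± 0.18 and were not called by edgeR. Without the HeyA8 siCAG library of 24 or 48 h, 27 or 19 members were called, where 24.8% or 28.9% of all genes were. Without the PC3 siCAG library of 48 h, or the siNT1 library of 48 h of either line, 2 were (4.46% to 5.19% of all genes), and without the siNT1 library of 24 h, 3 (PC3) or 4 (HeyA8) were, beside 6.53% and 8.91% of all genes.

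The difference in the siCAG response between 48 and 24 h was not called for any member or any of 15887 genes (0%) in edgeR, and DESeq2 called no member. In edgeR 2 of 54 members had an unadjusted p under 0.05, a count that is not read as a result. The largest values for members were those of HNRNPA1 (-1.002 ± 0.394), SNRPA (-0.99 ± 0.56) and SRSF7 (-0.71 ± 0.46) on the negative side and of HNRNPUL2-BSCL2 (0.82 ± 1.08), SF3B6 (0.63 ± 0.29) and SRSF8 (0.53 ± 0.31) on the positive side. In HeyA8 the median ratio to siNT1 over members was -0.32 at 24 h and -0.67 at 48 h on the log2 scale, each from 1 library per treatment.

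**Figure D5:**
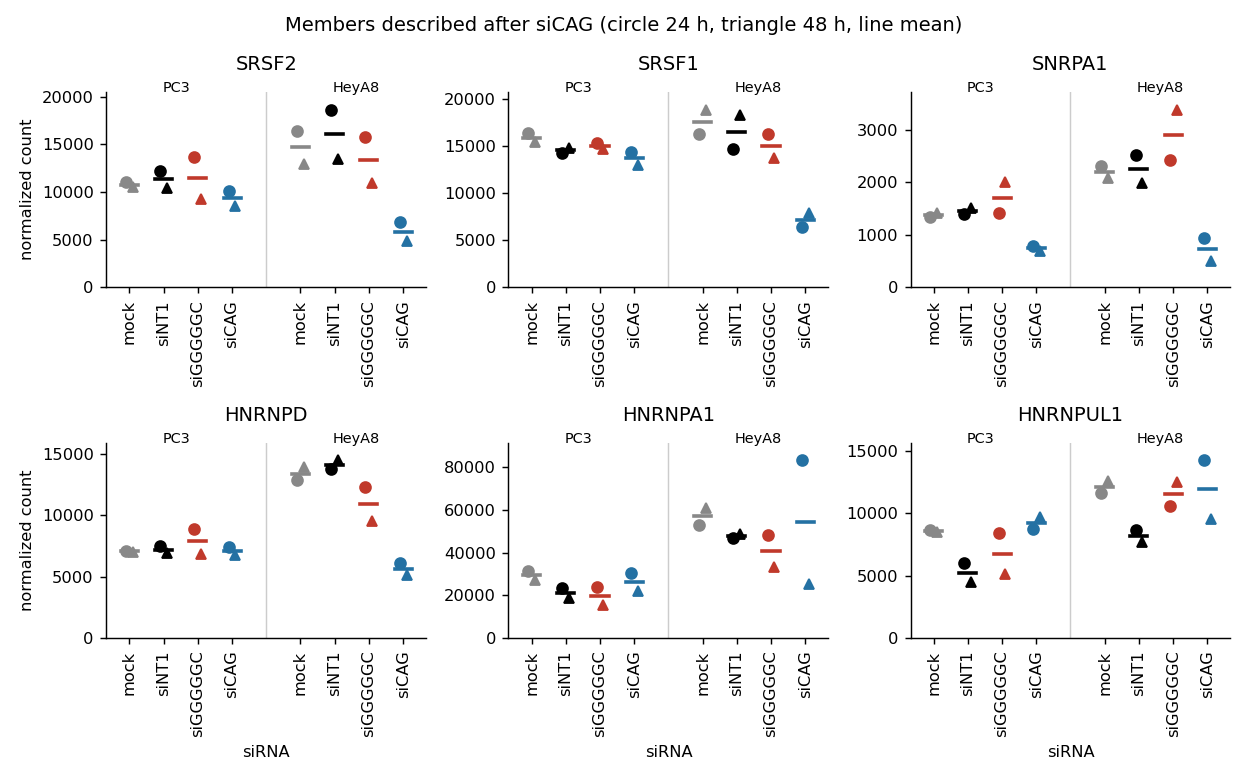
Normalized counts (y axis, from 0) of 6 members described after siCAG, by treatment in PC3 (left of each panel) and HeyA8 (right). Circles are 24 h, triangles 48 h and lines the mean of both. SNRPA1 is low after siCAG in both lines, HNRNPA1 is high at 24 h and low at 48 h in HeyA8, and HNRNPUL1 is lowest after siNT1 at 48 h in both lines.

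Runs of CTG, the complement of CAG, were counted in the same transcripts. No member held 4 or more CTG in a row, which 2.78% of protein-coding genes did. Runs of 3 were found in 6 members, against 15.8% of protein-coding genes: in the 3′ UTR of SNRPA1, SF3B3 and HNRNPLL, and in the coding sequence of HNRNPUL1, HNRNPU and SNRPN. The run of SNRPA1 is printed, since this gene had the largest decrease after siCAG, with the run in capitals.
SNRPA1, chr15:101281584-101281613, minus strand: aaatgcttaagaCTGCTGCTGataattttg

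SF3B3 and HNRNPLL, with a run of the same length in the 3′ UTR, had log2 fold changes of -0.25 ± 0.32 and -0.25 ± 0.27 (± SE) after siCAG in HeyA8. Of the genes with the run in the coding sequence, HNRNPU fell (-0.81 ± 0.18) and HNRNPUL1 had 0.53 ± 0.25, not called.

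The control siRNA was compared with mock cells in both lines. No member was called in PC3, where 0.231% of all genes were, and none in HeyA8, where 0% were, and DESeq2 called no member in either. At an unadjusted p under 0.05 edgeR gave 2 members in PC3 and 0 in HeyA8, beside 9.01% and 1.28% of all genes. HNRNPUL1, an RNA-binding relative of HNRNPU, had the most negative value in both lines, -0.72 ± 0.22 (SE, edgeR adjusted p = 0.33) in PC3 and -0.57 ± 0.25 (SE, edgeR adjusted p = 1) in HeyA8. Its normalized counts in PC3 were 8634 and 8482 in mock cells, 6001 and 4481 after siNT1, 8440.5 and 5095 after siGGGGGC and 8725 and 9698 after siCAG, and in HeyA8 11630.2 and 12599 in mock cells, 8670.5 and 7719.6 after siNT1, 10585 and 12519.6 after siGGGGGC and 14248 and 9560.5 after siCAG. The siNT1 libraries were under the mock and siCAG libraries in both lines. For HNRNPUL1 the increase after siCAG in PC3, 0.84 ± 0.22 against siNT1, was 0.11 against mock.

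HNRNPA1 (-0.49 ± 0.15) and HNRNPUL2-BSCL2 (-0.37 ± 0.70) had the next most negative values in PC3, and SRSF8 (0.15 ± 0.21), SNRPB (0.13 ± 0.14) and HNRNPA0 (0.12 ± 0.18) the most positive. In HeyA8 these were HNRNPUL2-BSCL2 (-0.55 ± 0.90) and HNRNPA1 (-0.26 ± 0.44), and SNRPD3 (0.22 ± 0.23), SF3A2 (0.19 ± 0.27) and SRSF9 (0.18 ± 0.30).

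For time after transfection, averaged over the 4 treatments, no member was called in PC3, where 0.0264% of all genes were, or in HeyA8, where 0% were, and DESeq2 called none. An unadjusted p under 0.05 was reached by 7 members in PC3 and 2 in HeyA8, beside 13.4% and 6.34% of all genes. In PC3 the log2 difference of 48 h from 24 h was -0.54 ± 0.13 (SE, edgeR adjusted p = 0.279) for HNRNPDL, -0.40 ± 0.16 (SE, edgeR adjusted p = 0.358) for SNRNP70 and -0.40 ± 0.11 (SE, edgeR adjusted p = 0.288) for HNRNPA1, and HNRNPUL2-BSCL2 (0.49 ± 0.44), SNRPD2 (0.32 ± 0.10) and HNRNPH1 (0.25 ± 0.09) were the most positive. In HeyA8 SNRPA (-0.64 ± 0.37), SF3A2 (-0.59 ± 0.19) and SF3A1 (-0.51 ± 0.22) were the most negative, and HNRNPUL2-BSCL2 (0.83 ± 0.63), SRSF11 (0.37 ± 0.24) and HNRNPLL (0.37 ± 0.19) the most positive.

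Other splicing genes were read from 3 lists: 72 further spliceosome proteins, 64 splicing regulators and 18 factors of snRNP assembly. After siGGGGGC in PC3, 2 of 72 tested spliceosome genes fell and 4 rose, 6 of 62 regulators fell and 1 rose, and 1 of 16 assembly factors rose, beside 6% and 3.67% of all genes. DESeq2 called 4 lower and 9 higher, 11 and 2, and 0 and 4 of these lists, beside 11.1% of all genes lower and 7.5% higher. The regulators that fell most were MBNL3 (-1.92 ± 0.48, edgeR adjusted p = 0.0461) and MBNL1 (-1.49 ± 0.34, edgeR adjusted p = 0.0392) of the muscleblind family, and RBFOX2 (-1.06 ± 0.18, edgeR adjusted p = 0.0193), a binder of GCAUG. ELAVL1, the RNA stabilizing protein HuR, rose by 0.52 ± 0.13 (edgeR adjusted p = 0.0497). Among spliceosome genes PRPF4B, a kinase, had -1.41 ± 0.28 (edgeR adjusted p = 0.0279) and PRPF39, a U1 factor, -0.86 ± 0.19 (edgeR adjusted p = 0.0356), while PRPF3 rose by 0.70 ± 0.17 (edgeR adjusted p = 0.0436), EIF4A3 by 0.68 ± 0.14 (edgeR adjusted p = 0.0314) and XAB2 by 0.65 ± 0.15 (edgeR adjusted p = 0.0385). The helicase DDX20 rose by 0.63 ± 0.16 (edgeR adjusted p = 0.0493). In HeyA8 none of these genes was called by edgeR after siGGGGGC. An unadjusted p under 0.05 was reached by 1, 4 and 1 of the 3 lists, beside 9.75% of all genes. DESeq2 called 1 regulator, beside 2.29% of all genes.

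After siCAG in HeyA8, 6 of 72 spliceosome genes and 4 of 59 regulators fell and none rose, beside 4.93% and 2.88% of all genes. DESeq2 called 12 lower in each of these lists, beside 10.9% of all genes lower and 8.29% higher. LSM5, of the ring on U6 RNA, fell by most (-2.07 ± 0.40, edgeR adjusted p = 0.0341), followed by U2SURP (-1.39 ± 0.27, edgeR adjusted p = 0.0335), a U2-associated protein, and CDC5L (-1.30 ± 0.22, edgeR adjusted p = 0.0233), a core component of the activated spliceosome. SYNCRIP (-1.15 ± 0.22, edgeR adjusted p = 0.0329), SRRM1 (-1.11 ± 0.21, edgeR adjusted p = 0.034) and SFPQ (-1.02 ± 0.23, edgeR adjusted p = 0.0463) led the regulators. None of the 16 assembly factors was called by edgeR or DESeq2, with 5 at an unadjusted p under 0.05 in edgeR, beside 29.5% of all genes. The median log2 fold changes of the 3 lists were -0.37, -0.42 and -0.39, beside -0.46 for members. In PC3 none of these genes was called by edgeR after siCAG, with 6, 0 and 2 at an unadjusted p under 0.05, beside 13.5% of all genes. DESeq2 called 1 spliceosome gene, beside 3.78% of all genes.

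Between the mock lines, 20 of 72 spliceosome genes, 16 of 62 regulators and 8 of 16 assembly factors were lower in PC3, and 4, 6 and 0 were higher, beside 19.9% and 25.6% of all genes. The assembly factor TGS1, which trimethylates the snRNA cap, differed by -3.42 ± 0.24 (edgeR adjusted p = 1.98e-06), STRAP by -1.87 ± 0.20 (edgeR adjusted p = 2.76e-05) and GEMIN5 by -1.29 ± 0.30 (edgeR adjusted p = 0.0052). PRPF4 (-1.65 ± 0.28, edgeR adjusted p = 0.000711), ISY1 (-1.43 ± 0.28, edgeR adjusted p = 0.00199) and U2SURP (-1.39 ± 0.34, edgeR adjusted p = 0.00628) led the spliceosome genes that were lower, and PPIE (1.42 ± 0.27, edgeR adjusted p = 0.00155), ZRSR2 (1.23 ± 0.33, edgeR adjusted p = 0.0105) and TXNL4A (1.15 ± 0.22, edgeR adjusted p = 0.0017) those that were higher. Of the regulators FUBP1 (-1.99 ± 0.38, edgeR adjusted p = 0.00164), KHDRBS3 (-1.75 ± 0.30, edgeR adjusted p = 0.000763) and SYNCRIP (-1.40 ± 0.21, edgeR adjusted p = 0.000277) were lowest in PC3. The epithelial regulators ESRP2 and ESRP1 and the neuronal NOVA1 were called higher in PC3. ESRP2 had 1078 and 1104 counts in mock PC3 at 24 and 48 h and 4 in each HeyA8 library, ESRP1 had 67 and 92 against 11 and 6, and NOVA1 had 272 and 345 against 0, and no fold is given for them. ESRP1 was also the only one of these genes called between siNT1 and mock in PC3, with 2.60 ± 0.25 (edgeR adjusted p = 0.023).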

How the data were processed

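Total RNA from 16 libraries was made into TruSeq total RNA libraries and sequenced. The authors deposited 1 table of raw read counts per gene, not normalized, for 26485 genes. Per the paper's methods paired-end reads of ribosome-depleted RNA were trimmed with Trimmomatic and aligned with Tophat or STAR, and the submitters' processing notes name STAR, HTSeq and hg38. Whether counting used strand is not stated in the sources used here. Every count column belonged to a sample. The length column deposited in the table was used only for an alternative set of levels.

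Counts were tested with edgeR 4.0.16 in R 4.3.3 (TMM, filterByExpr, quasi-likelihood F test), with Benjamini-Hochberg adjustment over all genes of a fit and calls at an adjusted p under 0.05. Each line was fitted on its 8 libraries with siRNA and time as terms (15136 genes in PC3, 13872 in HeyA8, 3 residual degrees of freedom each). Comparisons between or over the lines used all 16 libraries (15887 genes) with line and siRNA as groups and a time term per line. The test of 48 against 24 h responses used the lines as replicates. Normalized counts are counts divided by the TMM-scaled library size and multiplied by its mean over the line, and are compared within a line only. Levels between genes are CPM, scaled by TMM over the 16 libraries, per kb of the union of GENCODE v44 exons. The fits of each line, and that with line and siRNA as groups, were also run on simulated counts. These held no effect of time and less spread than the data, so they do not show how the tests perform on these libraries. An SE is that of the log2 fold change. At 27937092 to 31790209 counts per library, counting error matters only for genes with few counts.

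The members and gene lists were chosen with earlier results of these data known. Named genes are the members called, at most 10 in each direction within a line (6 elsewhere), the 3 largest log2 fold changes in each direction, the 5 highest and lowest levels, and the members with matches to the sequence features. Other members were named after their values were seen. Alternatives were RLE size factors, no filter on low counts, DESeq2 1.42.0, no time term, the 4 compared libraries alone, mock as control, leaving out 1 library, and, added after the data were seen, canonical transcript length, the length in the count table and library totals without TMM.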

Additional observations from a re-analysis of the deposited data

How the results depend on the processing

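Member counts moved most with the tool and the libraries. DESeq2 called 9 members in PC3 siGGGGGC (4 lower and 5 higher), 1 in HeyA8 siGGGGGC, 2 in PC3 siCAG, 20 in HeyA8 siCAG, 5 in the line difference for siCAG, 6 for siGGGGGC over both lines and 19 for siCAG over both lines. It called 18.6%, 2.29%, 3.78%, 19.2%, 4.22%, 13.1% and 22.3% of all genes in the same comparisons. The 4 compared libraries alone gave 1 in PC3 siGGGGGC, 4 in HeyA8 siGGGGGC, 6 in PC3 siCAG, 1 in HeyA8 siCAG and 2 in HeyA8 siNT1 against mock (HNRNPUL1 and SF3B6), beside 2.99%, 8.86%, 15.99%, 4.31% and 11.8% of all genes. Without the filter on low counts PC3 siCAG had 1 call (SNRPA1, 1.24% of all genes), and with mock as control siCAG over both lines had 14 (19.9%). With library totals alone 14 were called between mock lines (47.5%). Without the replicate block, that is without the time term, PC3 siGGGGGC had 2 calls (4.13% of all genes), and the counts of the other within-line comparisons stayed within 1.5 times.

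Leaving out 1 library at a time gave 0 to 10 calls in PC3 siGGGGGC, 0 to 0 in HeyA8 siGGGGGC and PC3 siCAG, 0 to 35 in HeyA8 siCAG, 6 to 15 between mock lines, 0 to 19 in the line difference for siCAG, 1 to 4 for siGGGGGC and 2 to 27 for siCAG over both lines. The shares of all genes called ranged from 0% to 23.5%, 0% to 0%, 0.191% to 0.796%, 0.291% to 32.9%, 26.3% to 34.9%, 0.0061% to 9.24%, 1.08% to 10.8% and 4.46% to 28.9% in the same comparisons, with HeyA8 siGGGGGC before PC3 siCAG. Against mock, the log2 fold change of HNRNPUL1 in HeyA8 reversed to -0.066 after siGGGGGC and -0.037 after siCAG. Leaving out 1 library gave 6 further reversals in 5 results, none of them called where reversed, given with the range over all alternatives: those of HNRNPA0 (-0.052 to 0.30) in PC3 siNT1 against mock, of HNRNPA1 (-0.67 to 0.27, 2 libraries), HNRNPUL2-BSCL2 (-1.51 to 0.33) and SF3A2 (-0.091 to 0.51) in HeyA8 siNT1 against mock, and of SNRPD2 (-0.19 to 0.83) in the line difference for siCAG, which was called at 0.83 without the HeyA8 siCAG library of 48 h. Of the values recomputed for single members, 746 kept direction and side of the threshold, 102 lost and 36 gained a call, and 8 reversed. The cause was not tested. With 2 libraries per group, taken at different times, a change that differs between 24 and 48 h enters the spread.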
